A study of Homo sapiens with 4 samples.

Results

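The 10 genes described here act in ferroptosis and in the glutathione pathway that opposes it: SLC7A11, SLC3A2, GCLC, GCLM, GPX4, AIFM2, GCH1, DHODH, NFS1 and ACSL4. They were chosen by name from 20007 protein-coding genes of GENCODE release 44 on hg38, not from their values. Earlier results of these data were known when they were chosen. Each gene was taken as its annotated body with 10 kb on either side, and every accessible region overlapping that window was kept. This gave 56 of the 80551 regions found in the series. Region counts per gene ran from 2 at SLC7A11 to 13 at GCLC, with a median of 4 regions in a median window of 53.8 kb, against 3 regions and 47.5 kb over all coding genes.

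Ferroptosis is a form of cell death driven by iron-dependent peroxidation of membrane lipids. Cells hold it off by importing cystine, building glutathione from the cysteine obtained, and using glutathione to reduce lipid peroxides. Separate systems trap lipid radicals without glutathione, while incorporation of polyunsaturated fatty acids into membranes supplies the substrate that is peroxidised. ACSL4, which acts on that last step, promotes ferroptosis, so the 10 genes are not all on the protective side.

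The samples were HepG2 cells, a human hepatocellular carcinoma line labelled as wild type, profiled by ATAC-seq (Omni protocol), in which a transposase tags open chromatin, on 50000 cells per library. Controls (n = 2) were untreated, and the treated cells (n = 2) received 5 µM tazemetostat in DMSO for 48 h. Tazemetostat inhibits EZH2, the histone H3 lysine methyltransferase of polycomb repression. The labels do not say whether the controls received DMSO or whether the replicates were separate cultures, so the spread between replicates may be technical. All groups came from this established line, and each library has a list of the peaks called in it.

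The level used throughout is the normalised tag count, the tags in a peak per 10 M mapped tags of its library. Where no peak was called, the list gives no value, which is not a value of 0. Mapped tags ran from 17.2 to 26.6 M, and the depths of the groups overlapped. The 2 controls held 26133 and 34768 peaks with 4.32% and 5.69% of tags in them, and the 2 tazemetostat libraries held 55313 and 54157 peaks with 11.51% and 9.81%. Tag counts were higher in both treated libraries than in both controls at most regions with a peak in every library, and the values below are read against that background. Promoters of 6 of 9 hepatocyte markers had a peak in all 4 libraries, whereas those of ALB and AFP had none in any. Of 5 markers of other cell types, only MYOD1 had a promoter peak, in tazemetostat replicate 1 at a tag count of 9.57.

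Short promoter sequences are shown for the 5 genes whose promoters carried an antioxidant response element or lay in a region called under tazemetostat alone. They were read from the RefSeq promoter table (GRCh38.p14), are identical to hg38, and run 5′ to 3′ along the gene. Capitals mark the matched letters. For AIFM2 (chr10:70132828-70132857, minus strand), GCLM (chr1:93909456-93909680, minus strand) and SLC3A2 (chr11:62881454-62881698, plus strand) the capitals mark the antioxidant response element core TGACNNNGC on either strand, the letters bound by NRF2, a regulator of glutathione genes. For GPX4 (chr19:1103744-1103981, plus strand) they mark the CCAAT box, and for ACSL4 (chrX:109733404-109733507, minus strand) the cyclic AMP response element core TGACGT. Annotated coding and untranslated parts of exons were left out, except the last letter shown for GCLM, which is the first base of the annotated gene. At AIFM2 only 30 bases are shown because the match lies in the first exon of another AIFM2 transcript.
AIFM2: cagcacgagtGCTGAGTCAcgccccgcccg
GCLM: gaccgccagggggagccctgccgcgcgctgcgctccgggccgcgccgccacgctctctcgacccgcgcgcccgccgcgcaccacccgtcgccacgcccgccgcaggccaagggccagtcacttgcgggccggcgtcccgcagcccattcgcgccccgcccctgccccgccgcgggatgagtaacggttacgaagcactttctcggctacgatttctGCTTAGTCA
SLC3A2: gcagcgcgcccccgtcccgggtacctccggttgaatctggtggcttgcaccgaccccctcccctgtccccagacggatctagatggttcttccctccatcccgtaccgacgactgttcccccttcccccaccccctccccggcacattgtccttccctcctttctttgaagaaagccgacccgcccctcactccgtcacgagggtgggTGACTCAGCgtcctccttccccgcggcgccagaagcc
GPX4: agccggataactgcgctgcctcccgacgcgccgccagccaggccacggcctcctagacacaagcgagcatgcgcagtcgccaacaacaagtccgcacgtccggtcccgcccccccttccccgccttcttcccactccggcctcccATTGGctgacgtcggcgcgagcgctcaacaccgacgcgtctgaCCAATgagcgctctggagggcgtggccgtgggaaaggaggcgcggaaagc
ACSL4: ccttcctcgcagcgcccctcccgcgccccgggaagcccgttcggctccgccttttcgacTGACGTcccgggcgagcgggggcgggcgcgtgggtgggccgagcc

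These promoters were rich in G and C. The 12 RefSeq promoters found for 8 of the genes had a GC content of 61.0% to 79.0%, against a median of 58.7% over all RefSeq promoters. No entry was matched for SLC7A11 or GCH1. The antioxidant response element core was found at AIFM2, GCLM and SLC3A2, in 3 of the 12 promoters, and 13.3% of all 35116 promoters of the same 300 bases hold it. In AIFM2 and SLC3A2 the same letters also match the AP-1 site TGANTCA, held by 7.71% of promoters. The match began 22 bases before the RefSeq start of AIFM2, 34 before that of GCLM and 37 before a start of SLC3A2. The TGACGT core was found in 3 of the 12 promoters, at ACSL4 and in 2 overlapping promoters of GPX4 that share the match, and 7.98% of promoters hold it. In GPX4 it lies just 3′ of the first CCAAT box printed, and CCAAT itself is common, at 34.6% of promoters. GC boxes, GGGCGG, were found in 11 of the 12 promoters against 45.0% of all promoters. A match of letters is a description of the sequence and does not show that a factor was bound.

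All 10 promoters, defined as 1 kb upstream to 100 bp downstream of the start of the MANE transcript (the agreed reference transcript of a gene), overlapped an accessible region. Among all coding promoters 56.3% did. For 7 of them the region was called in all 4 libraries, which held for 31.6% of coding promoters. For the other 3, GPX4, AIFM2 and ACSL4, a peak was found in each treated library but no control (termed tazemetostat-only), which held for 5.98% of coding promoters. Among coding promoters with a peak in the same library, these promoters ranked from the 3.8 percentile (ACSL4, tazemetostat replicate 2) to the 94.7 percentile (NFS1, control replicate 1).

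**Figure D1:**
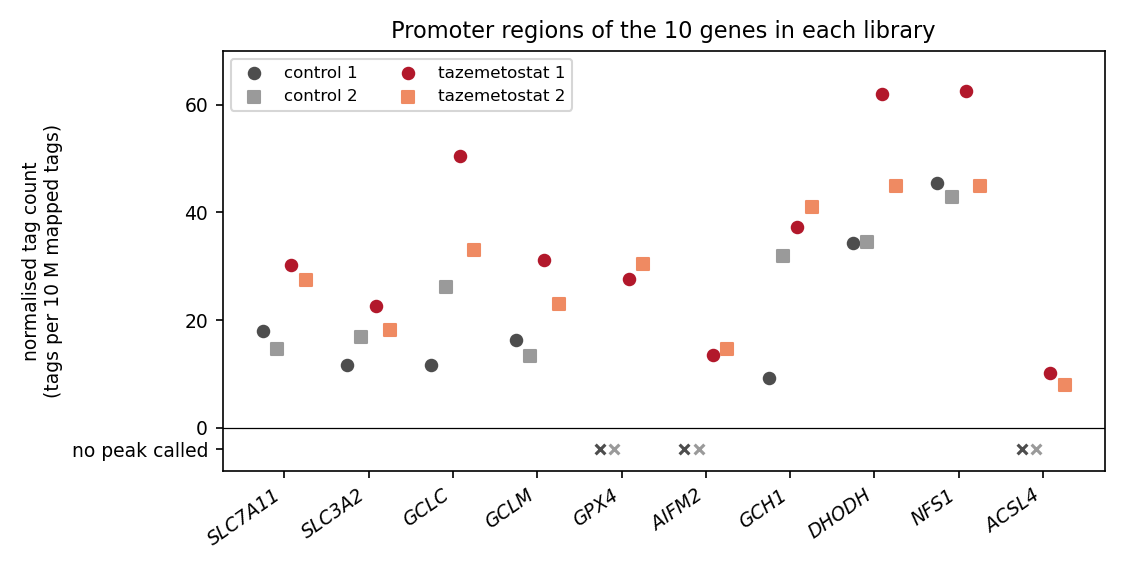
Normalised tag count (tags per 10 M mapped tags, vertical axis) of the promoter region of each gene in the 4 libraries, with crosses where no peak was called. GPX4, AIFM2 and ACSL4 have values in the 2 tazemetostat libraries only, and NFS1 and DHODH have the highest promoters in the controls, between 34.3 and 45.4.

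Across all windows, 16 of the 56 regions were called in all 4 libraries, 9 (16.1%) were tazemetostat-only and 0 were called in both controls alone. Over the whole series 13.7% of regions were tazemetostat-only, so the share at these genes was near that background. Of the rest, 24 regions were called in a lone library, 12 in tazemetostat replicate 1, 7 in tazemetostat replicate 2, 2 in control replicate 1 and 3 in control replicate 2. Their tag counts lay between 6.02 and 16.6, with a median of 8.43. In all, control replicates 1 and 2 contributed to 20 and 24 regions, and tazemetostat replicates 1 and 2 to 43 and 39.

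**Figure D2:**
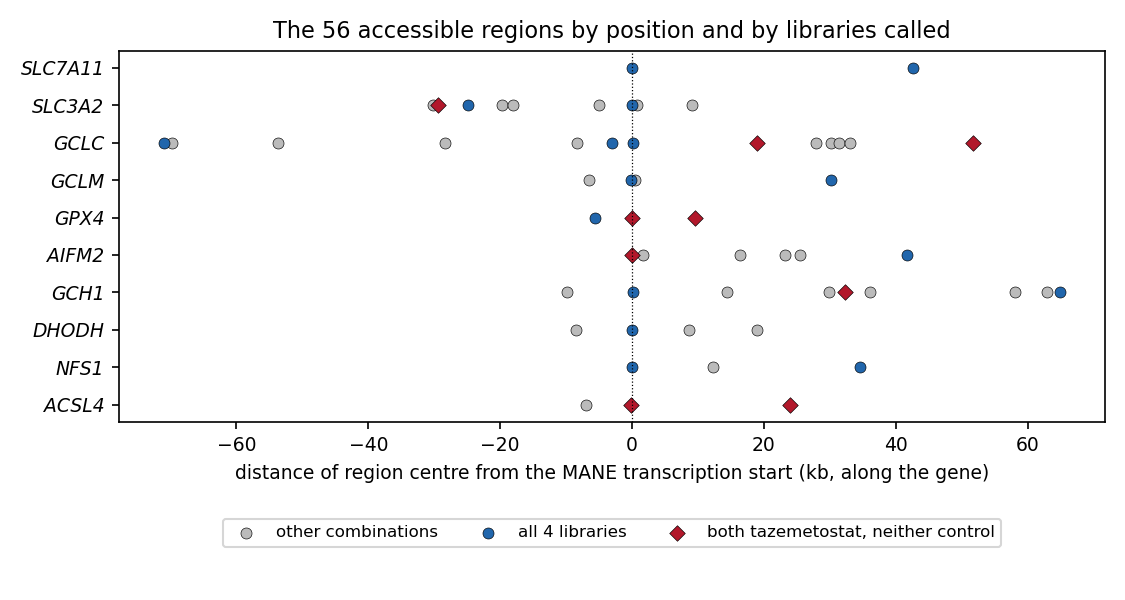
Position of the 56 regions relative to the MANE transcription start of each gene (horizontal axis, kb along the gene), coloured by the libraries in which each was called. Every gene has a region at its start, and the 9 tazemetostat-only regions (diamonds) are at 6 of the 10 genes.

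The import of cystine depends on system xc-, formed by SLC7A11, the transporter that exchanges cystine for glutamate, and SLC3A2, the heavy chain that holds it at the membrane. SLC7A11 (ENSG00000151012, chr4:138164097-138242349, minus strand) had only 2 regions, both called in every library. At the promoter (chr4:138242070-138242713) tag counts were 18.0 and 14.7 in the controls and 30.2 and 27.5 under tazemetostat. At a region inside the gene, 42.6 kb from the start (chr4:138199458-138199981), they were 18.6 and 15.1 against 33.3 and 28.6. Both tazemetostat values lay above both controls at each region, and the ratio of means was 1.76 at the promoter and 1.84 inside the gene.

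The region inside SLC7A11 stood out from its surroundings more than any other region tested at these genes. Its fold over the surrounding 10 kb, a value set within each library, was 73.9 and 35.46 in the controls and 29.69 and 53.61 under tazemetostat. Those values overlapped between the groups, unlike the tag counts. The central 300 bp of both SLC7A11 regions held the amino acid response element core TGATGNAA, found in 8 of the 56 regions and in 4.45% of 78220 regions on the primary chromosomes.

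SLC3A2 (ENSG00000168003, chr11:62856004-62888880, plus strand) has several starts and had 9 regions. At its MANE promoter (chr11:62880637-62881137) tag counts were 11.6 and 16.8 in the controls and 22.7 and 18.1 under tazemetostat. At an upstream start shared with the snoRNA host gene SNHG1 (chr11:62855789-62856361) they were 13.4 and 16.8 against 26.2 and 18.4. The groups did not overlap at either, but control replicate 2 and tazemetostat replicate 2 were close. The start that carries the printed response element lay in a region (chr11:62881373-62881836) called only in tazemetostat replicate 2, at 16.6. A tazemetostat-only region 29.4 kb upstream of the MANE start had tag counts of 26.2 and 17.7, with local folds of 4.82 and 4.04. That last fold is close to the 4 that the peak caller required. Of the other 5 regions, 3 were called in a control library alone, so SLC3A2 had most of the 5 regions that were found in a lone control.

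GCLC and GCLM encode the catalytic and modifier subunits of glutamate-cysteine ligase, which makes the first bond of glutathione. GCLC (ENSG00000001084, chr6:53497341-53616970, minus strand) had 13 regions, 3 of them in all libraries. Its promoter (chr6:53544517-53545348) had 11.6 and 26.1 in the controls and 50.4 and 33.1 under tazemetostat. The ratio of means was 2.21. Control replicate 1 was low there, where its peak spanned only 300 bp against 667 bp in control replicate 2. A second start 3.0 kb upstream had 20.4 and 20.6 against 29.7 and 38.8.

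The highest region in the GCLC window lay 71.0 kb upstream of the MANE start, inside a longer GCLC transcript, where it covers the start of the non-coding gene LINC01564 (chr6:53615594-53616604). Tag counts were 32.6 and 29.0 in the controls and 71.1 and 74.5 under tazemetostat, the largest ratio of means among the tested regions at 2.36. GCLC also had 2 tazemetostat-only regions, both low. The region 18.9 kb into the gene had 7.56 and 10.5, and the region 51.7 kb from the start had 7.05 and 6.4. Another 8 regions were called in a lone library, 7 of them under tazemetostat.

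GCLM (ENSG00000023909, chr1:93885199-93909456, minus strand) had 4 regions and none that was tazemetostat-only. At its promoter (chr1:93909253-93910020), which contains the printed response element, tag counts were 16.3 and 13.4 in the controls and 31.2 and 23.0 under tazemetostat. The local fold there went the other way, 10.6 and 10.9 in the controls against 5.61 and 5.69. The peaks were wider under tazemetostat, at 767 and 640 bp against 464 and 456 bp. A region 30.2 kb from the start, at the start of the neighbouring gene DNTTIP2, had 12.2 and 13.0 against 17.1 and 12.4, so the groups overlapped.

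GPX4 reduces lipid hydroperoxides with glutathione and is the central enzyme of the defence. The gene (ENSG00000167468, chr19:1103982-1106791, plus strand) is short, and 2 of its 3 regions were tazemetostat-only. The promoter region (chr19:1103794-1104258) had 27.7 under tazemetostat replicate 1 (55 tags, 95% exact Poisson interval 20.9 to 36.1) and 30.5 under replicate 2 (81 tags, 24.2 to 37.9). These intervals cover counting error only. The level was far above the lowest tag counts listed in the controls, 6.4 and 5.04, but the local folds of 5.03 and 4.72 were near the required 4.

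A second tazemetostat-only region lay 9.6 kb downstream of the GPX4 start, with 19.7 and 8.66. The third region, 5.7 kb upstream (chr19:1097836-1098801), was called in all libraries and had the highest tag count of all 56 in tazemetostat replicate 1. Its tag counts were 41.3 and 49.2 in the controls and 86.2 and 67.0 under tazemetostat. Its local folds of 4.86 and 4.44 in the controls and 4.36 and 4.04 under tazemetostat were lower in the treated libraries and close to the threshold in each.

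AIFM2, GCH1 and DHODH act without GPX4. AIFM2 encodes FSP1, which regenerates the radical trap ubiquinol at the plasma membrane. The gene (ENSG00000042286, chr10:70098223-70132934, minus strand) had 6 regions. Its promoter region (chr10:70132678-70133052) was tazemetostat-only, with 13.6 (27 tags, 8.97 to 19.8) and 14.7 (39 tags, 10.4 to 20.1), at the 12.0 and 17.9 percentiles of coding promoters with a peak. The local folds were 4.12 and 4.42, again just past the threshold. A region 1.6 kb inside the gene (chr10:70130939-70131488) had 15.1 in control replicate 1, no peak in control replicate 2, and 29.2 and 24.1 under tazemetostat. The accessible stretch next to the promoter was therefore present in one control. A shared region 41.7 kb from the start had 25.6 and 25.6 against 27.2 and 32.0, and the other 3 regions were called in tazemetostat replicate 1 alone.

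GCH1 makes the first step of tetrahydrobiopterin, another radical trap. It (ENSG00000131979, chr14:54842008-54902826, minus strand) had 9 regions. The promoter (chr14:54901908-54903330) summed to 9.31 and 31.9 in the controls and 37.3 and 41.0 under tazemetostat. Control replicate 1 held a peak of only 300 bp there, while control replicate 2 and tazemetostat replicate 2 each held 2 peaks, so the promoter was left out of the test. A region 64.9 kb from the start, past the 3′ end (chr14:54837682-54838208), had 15.7 and 12.6 against 33.3 and 33.5. The local fold there was also higher in both treated libraries, at 21.21 and 14.55 against 14.52 and 5.69. The tazemetostat-only region, 32.3 kb into the gene, was the weakest of the 9 tazemetostat-only regions, with 7.05 and 4.89 from 14 and 13 tags. Another 4 regions were called in a lone tazemetostat library.

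DHODH, an enzyme of pyrimidine synthesis that reduces ubiquinone in mitochondria, had a strong promoter (ENSG00000102967, chr16:72008588-72027664, plus strand). At chr16:72008316-72009072 tag counts were 34.3 and 34.5 in the controls and 62.0 and 44.8 under tazemetostat. The groups did not overlap, but the treated replicates differed by more than the gap between tazemetostat replicate 2 and the controls. Its remaining 3 regions were called in a single library or in 3.

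NFS1 is the desulfurase that takes sulfur from cysteine for iron-sulfur clusters, and its loss sets off an iron-starvation response. Its promoter (ENSG00000244005, chr20:35668052-35699355, minus strand) is shared with the divergent gene ROMO1. At chr20:35698957-35699673 tag counts were 45.4 and 42.9 in the controls and 62.5 and 44.8 under tazemetostat. Tazemetostat replicate 2 fell between the controls, so the groups overlapped. A region over the starts of CPNE1 and RBM12, 34.5 kb away, showed the same order, with 33.7 and 31.9 against 55.4 and 33.5; it held 2 peaks in control replicate 1 and was not tested.

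ACSL4 activates arachidonate and related fatty acids for membrane lipids. The gene (ENSG00000068366, chrX:109624244-109733403, minus strand) had no region called in all 4 libraries, and 2 of its 3 regions were tazemetostat-only. The promoter region (chrX:109733248-109733673) had 10.1 (20 tags, 6.16 to 15.6) and 7.91 (21 tags, 4.89 to 12.1). A region 23.9 kb into the gene (chrX:109709224-109709529) had 8.57 and 9.03. Both were low, and the promoter stood at the 5.8 and 3.8 percentiles of coding promoters with a peak in the same library. Unlike GPX4 and AIFM2, they stood clear of their surroundings, with local folds of 11.45 and 15.77 at the promoter and 12.49 and 14.92 inside the gene. The lower bounds of the promoter's intervals, 6.16 and 4.89, reached the range of the lowest tag counts listed per library, 4.89 to 6.4. The third region, 7.0 kb upstream, was called in control replicate 2 at 16.0 and under tazemetostat at 16.6 and 31.2.

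**Figure D3:**
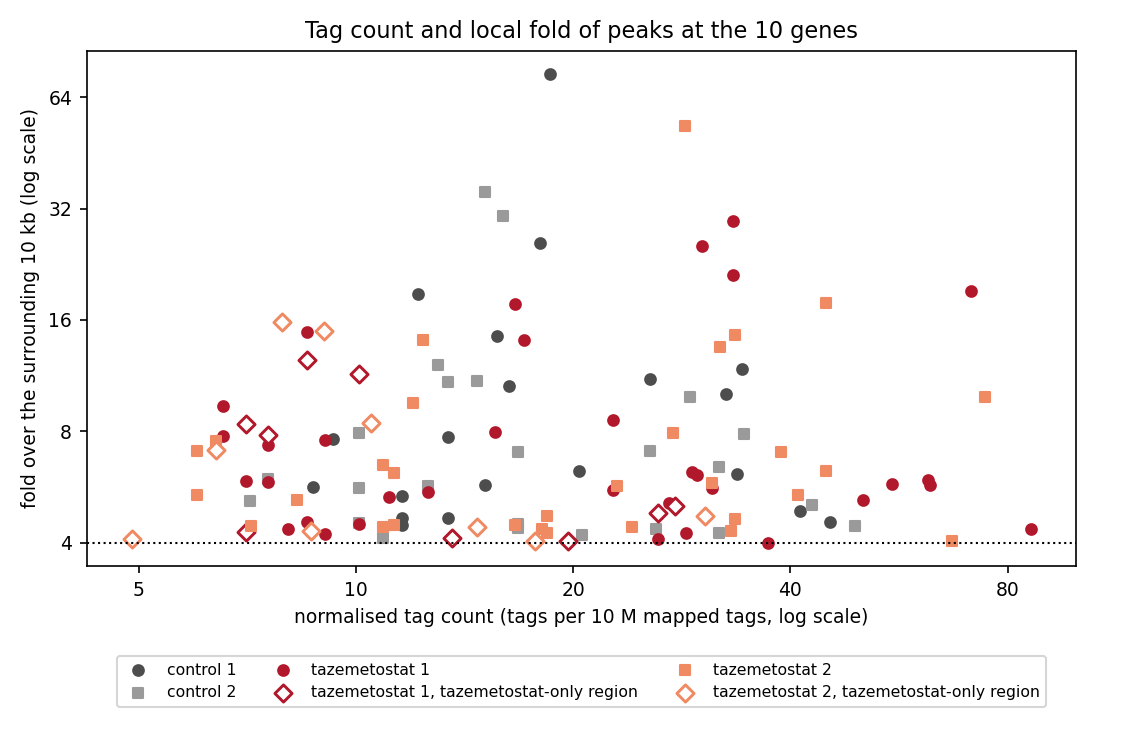
Normalised tag count (horizontal, log scale) against the fold over the surrounding 10 kb (vertical, log scale) for each of the 56 regions in each library with a peak there (peaks of 1 region summed, with the higher fold), with open diamonds for tazemetostat-only regions and a dotted line at the required fold of 4. The GPX4 diamonds with 27.7 and 30.5 tags per 10 M sit near the line, and the ACSL4 diamonds lie well above it at low tag counts.

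To ask whether tag counts differed between the groups, limma was fitted to log2(normalised tag count + 1) in the 15383 regions with exactly 1 peak in each library. The fit draws the variance of each region towards a value shared by all of them. The standard errors (SE) at these genes therefore ran only from 0.29 to 0.35, even where the 2 controls were equal, as downstream of AIFM2. At these genes 14 of the 56 regions could be tested, from every gene except ACSL4. Of these, 6 were called higher under tazemetostat at an adjusted p under 0.05 (Benjamini-Hochberg) and 0 lower, where 42.7% of all tested regions were called higher and 0.247% lower. In 12 of the 14 both treated libraries lay above both controls, as they did in 81.6% of all tested regions. Both shares were near their background.

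The 6 called regions belonged to 4 genes. The GCLC region at LINC01564 had a log2 change of 1.22 (SE 0.29, limma adjusted p = 0.0102) and the GCLC promoter 1.18 (SE 0.35, limma adjusted p = 0.0178). The region downstream of GCH1 had 1.19 (SE 0.30, limma adjusted p = 0.0108). The region inside SLC7A11 had 0.84 (SE 0.30, limma adjusted p = 0.0324) and its promoter 0.79 (SE 0.30, limma adjusted p = 0.0400). The GCLM promoter had 0.82 (SE 0.30, limma adjusted p = 0.0380). The GCLC promoter value rested on control replicate 1: without it the log2 change was 0.63, where the median of all tested regions was 0.57. Without control replicate 2 the GCLC promoter had 1.73, against a median of 0.80. The region inside SLC7A11, its promoter and the GCLM promoter then had 0.70, 0.65 and 0.68, below that median. Without tazemetostat replicate 1 the 6 changes ran from 0.60 to 1.25 (median of all tested regions 0.61). Without tazemetostat replicate 2 they ran from 0.85 to 1.48 (median 0.80). Each of these fits leaves 1 library in a group, so their calls are not compared.

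Among the 8 regions that were not called, the region upstream of GPX4 (log2 change 0.74) and the second GCLC start (0.70) came closest, with limma adjusted p = 0.0506 and 0.0589. The DHODH promoter had 0.60 (limma adjusted p = 0.0953). The SLC3A2 promoter and upstream start had 0.51 and 0.52. The NFS1 promoter had 0.26, and the regions downstream of GCLM and AIFM2 had 0.20 each.

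The median log2 change over all tested regions was 0.70, and over the 14 regions 0.72. Relative to the overall median, 8 of the 14 lay above it. When the library medians were set equal, the changes of the 14 ran from -0.56 to 0.46 with a median of -0.04, 8 of them were negative, and limma called 0 of them and 0 of all regions, with 1 of the 14 at an unadjusted p under 0.05. That 1 was the DNTTIP2 region downstream of GCLM, which was lower under tazemetostat on this scale. The overall split of calls shifted too, from 6569 higher and 38 lower to 23 higher and 174 lower with edgeR's TMM factors. The higher tag counts at the called regions of SLC7A11, GCLC, GCLM and GCH1 were of the size seen over the tested regions as a whole, or above it. On the log2 scale as deposited they reached 1.22 at the GCLC region that covers the LINC01564 start, against the median of 0.70. The GCH1 region lay downstream of the gene, and the GCH1 promoter was not tested.

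**Figure D4:**
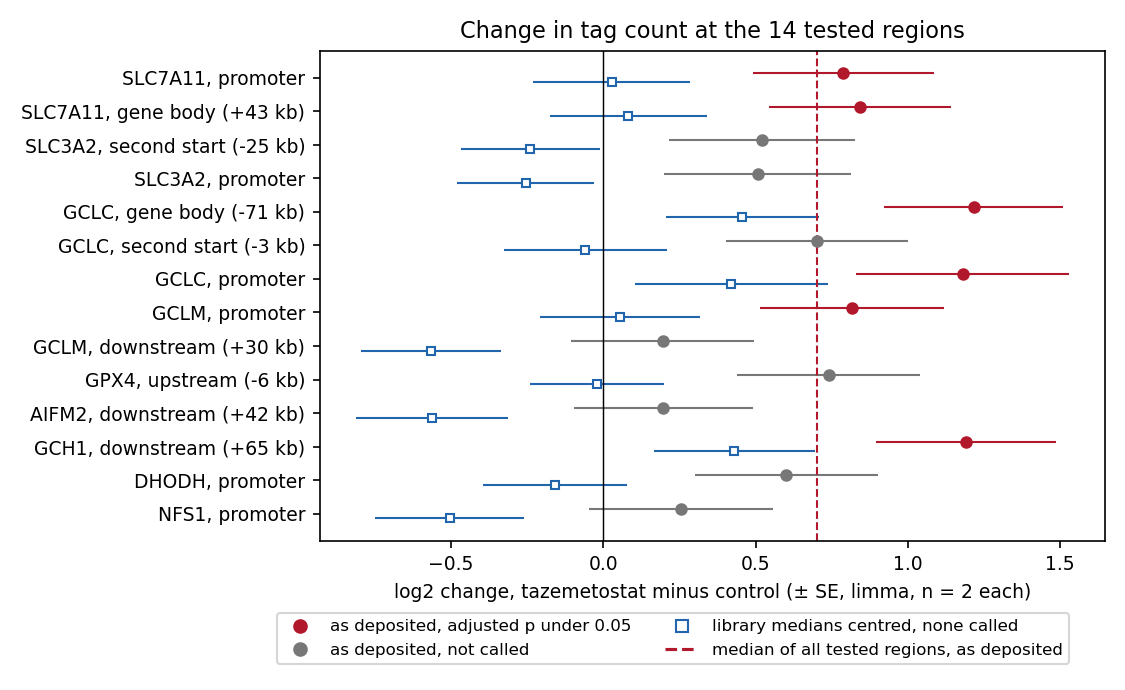
Log2 change in tag count (± SE, n = 2 libraries each) at the 14 tested regions as deposited (filled) and with library medians set equal (open), with the median of all tested regions as a dashed line. As deposited the 14 changes run from 0.20 to 1.22 around the line at 0.70, and with medians set equal they scatter around 0.

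The local fold gave a different picture from the tag count. Both treated folds were above both controls in 2 of the 14 regions, the GCH1 downstream region and the NFS1 promoter, and below both in 3, the GCLM promoter, the upstream SLC3A2 start and the region upstream of GPX4. Over all tested regions these shares were 22.3% and 16.1%. Median peak length at the 14 regions was 454.5 and 501.0 bp in the controls and 540.0 and 518.5 bp under tazemetostat. Over all tested regions it was 409.0 and 502.0 bp against 579.0 and 585.0 bp, so longer peaks were not particular to these genes. Of the 14, 12 were longer on average in the treated libraries, a count not made over all tested regions. Per kilobase of peak, 7 of the 14 were called higher, against 32.9% of all tested regions on that scale, and the GCLM promoter was no longer among them (limma adjusted p = 0.348) while the NFS1 promoter and the second GCLC start were. The part of peak length, or of the share of tags in peaks, in the tag count differences was not tested.

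At least 1 tazemetostat-only region lay in the window of 6 of the 10 genes: SLC3A2, GCLC, GPX4, AIFM2, GCH1 and ACSL4. This held for 32.5% of coding windows. In the order named, the windows of these genes spanned 52.9, 139.6, 22.8, 54.7, 80.8 and 129.2 kb, against a median of 47.5 kb over all coding genes. The part of window length in this count was not tested. A control-only region lay in 0 of the 10, against 1.34% of coding windows. With peaks restricted to a local fold of at least 8, tazemetostat-only regions remained at 1 gene, ACSL4, and a control-only region appeared at GCLM, while the shares of coding windows were 10.7% and 2.62%. With an equal number of the highest peaks from each library they remained at 2, SLC3A2 and GPX4, and control-only regions at 0, against 12.5% and 4.05% of coding windows.

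The wider pathway was described with 43 further genes in 4 lists. A tazemetostat-only region lay in the window of 15 of the 43, or 34.9%, and a control-only region in 0. By list, these were 4 of 13 genes of glutathione synthesis, recycling and use, 5 of 12 of radical trapping and membrane remodelling, 2 of 9 of lipid peroxidation and 4 of 9 of iron-sulfur cluster assembly. The share over the 43 was close to the 32.5% of coding windows. With an equal number of the highest peaks from each library, 5 of the 43 genes had a tazemetostat-only region and 6 a control-only region. Over all coding windows these shares were 12.5% and 4.05%.

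Pathway genes with high regions of this kind included GSR, GGT1, AGPAT3 and ACSL3. At GSR, which reduces oxidised glutathione, the promoter region had 35.8 and 21.5. At GGT1, which breaks down extracellular glutathione, it lay at the start of the neighbouring gene LRRC75B and had 26.7 and 24.5. AGPAT3, a lysophospholipid acyltransferase, had 14.1 and 18.1, and ACSL3, which activates monounsaturated fatty acids, had 14.6 and 13.6. The local folds of these 4 lay between 4.37 and 7.24 in the treated libraries.

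In the fit of tag counts, 62 regions of the pathway genes could be tested, and limma called 26 higher and 0 lower, with a median log2 change of 0.69. By list, 3 of 15 regions were called for glutathione, 7 of 19 for radical trapping, 6 of 12 for lipid peroxidation and 10 of 16 for iron-sulfur clusters, where the background was 42.7%. With library medians set equal, 0 of the 62 were called.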

How the data were processed

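ATAC-seq was analysed in 4 HepG2 libraries, 2 untreated and 2 given tazemetostat, grouped by the sample titles. Per the labels, the authors used Trim Galore 0.6.6 for trimming, Bowtie2 2.3.5.1 for alignment to hg38 (inserts up to 2000 bp, per the methods) and HOMER 4.11.1 for peak calling, library by library and without pooling. Initial peaks spanned 300 bp, per the file headers, and were joined into regions of variable length; they needed a fold of 4 over the surrounding 10 kb at a Poisson p-value of 0.0001. The headers give a false discovery rate of 0.001 and the methods 0.05. The headers also give a fragment length of 200 bp in the controls and 144 bp under tazemetostat, so that setting and treatment cannot be told apart. No source used here states a shift of tags for the transposase. In the controls the local filter discarded 77.0% and 80.0% of candidates, and in the treated libraries 62.7% and 70.9%. A position with many tags can therefore lack a peak.

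The signal column that was deposited holds normalised tag counts, tags per 10 M mapped tags. Multiplied by the mapped tags it gave whole numbers within 0.25 in 100% of peaks, and these recovered counts entered DESeq2 1.42.0 and the quasi-likelihood test of edgeR 4.0.16 as alternatives. The deposited score, whose meaning after peaks were joined is unclear, was not used for tests. Of the deposited ratio columns, the local fold was used and the clonal fold was not. The deposited p-value was not used for tests. No molecular identifiers are mentioned, so intervals cover counting error only.

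Peaks overlapping by at least 1 bp were merged across libraries. Tag counts were compared with limma 3.58.1 in R 4.3.3 on log2(normalised tag count + 1), which understates changes of low values, with no replicate block. With 2 libraries a group, p-values measure the spread between these samples only, and limma shares that spread across all tested regions. Alternatives were library medians set equal, tag count per kilobase, a pseudocount of 5, a minimum mean of 20, edgeR with mapped tags or TMM factors, DESeq2, a replicate block, an overlap of 50%, leaving out each library, and, for windows, a local fold of 8, equal numbers of peaks and other flanks. The scripts were tested on simulated data. The 10 genes and the lists were chosen with earlier results of these data known. All regions of the 10 genes are counted and plotted, and some are not described singly. Of the pathway genes, those with a control-only region and the 5 with the highest tazemetostat-only region were to be named; 1 of these is not reported here. The comparison of local folds was added after the tag counts were seen. The study's own differential peaks were not used here.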

Additional observations from a re-analysis of the deposited data

How the results depend on the processing

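Of the 14 tested regions, limma called 6 higher as deposited, against 42.7% of all tested regions. The count was 0 with library medians set equal, 0 with edgeR and TMM factors, and 0 with DESeq2 and its size factors. There 0%, 0.15% and 0.0195% of all tested regions were called higher, and 1, 2 and 0 of the 14 had an unadjusted p under 0.05. The count of regions called higher was 8 with a pseudocount of 5 and 7 with edgeR and mapped tags. Of all tested regions 48.9% and 48.5% were then called higher. With a minimum mean of 20 it was 8 of 11 regions, against 54.1% of all those tested. The region upstream of GPX4 was among the calls in each of these. In every alternative 0 were called lower. Deviations of same-numbered libraries from their group means had a correlation of -0.00246 over the tested regions. With 2 libraries a group this cannot show whether same-numbered libraries were prepared together. With a replicate block 3 regions were called, against 32.8% of all tested regions. With a library left out, the median change of the 14 ran from 0.58 to 0.84, against 0.57 to 0.80 over all tested regions. Those fits assume that the lone library varies like the others. With library medians set equal, TMM factors and DESeq2, in that order, the change turned negative at the DNTTIP2 region of GCLM (-0.56, -0.50, -0.50), the region downstream of AIFM2 (-0.56, -0.49, -0.49), the upstream start of SLC3A2 (-0.24, -0.18, -0.17), its promoter (-0.25, -0.22, -0.21), the DHODH promoter (-0.16, -0.094, -0.10) and the NFS1 promoter (-0.50, -0.45, -0.45). With medians set equal alone it was -0.019 upstream of GPX4 and -0.059 at the second GCLC start. With a library left out the DNTTIP2 region ranged from -0.021 (without tazemetostat replicate 1) to 0.41. These shifts follow from the scaling, which lowered the median change of all regions from 0.70 to -0.06, 0.00 and 0.00.

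Genes with a tazemetostat-only region numbered 6 of 10, falling to 1 at a local fold of at least 8 and 2 with equal numbers of peaks, and ranging from 6 to 8 with a library left out. The shares of coding windows moved alike, from 32.5% to 10.7% and 12.5%, and to between 37.9% and 54.8%. Genes with a control-only region numbered 0, rising to 1 at a local fold of at least 8, to 3 when 1 library of the group was enough, and ranging from 0 to 2 with a library left out (2 without control replicate 1 or 2, against 16.3% and 15.3% of coding windows). The share of coding windows was 26.1% when 1 library was enough. Pathway genes with a tazemetostat-only region numbered 15, then 5 at a local fold of at least 8 and 5 with equal numbers of peaks. They numbered 30 when 1 library was enough, against 64.4% of coding windows, and 15 to 25 with a library left out. The highest of these came without tazemetostat replicate 1 (24) or 2 (25). Pathway genes with a control-only region numbered 0, then 1, 6 and 17 under the same 3 settings, and 13 and 8 without control replicate 1 and 2. The shares of coding windows with such a region were 1.34%, then 2.62%, 4.05% and 26.1%, and 16.3% and 15.3%. Leaving out a library loosens the definition of these sets. With 2 libraries a group and 13 to 81 tags in tazemetostat-only peaks, a missing control peak does not show closed chromatin.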
